A study of Mus musculus with 9 samples.

Results

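The apolipoproteins and the triglyceride transfer protein that builds very-low-density lipoprotein (VLDL) were followed in mouse liver through 10 genes: Apob, Mttp, Apoe, Apoa5, Apoa4, Apoa1, Apoa2, Apoc1, Apoc2 and Apoc3. They were taken by gene symbol from the deposited table of 17442 genes, and all 10 were found there and passed the filter on low values. The table came from RNA sequencing of whole liver of 9 male C57BL/6 mice, 5 labelled Msr1-/- and 4 wild type. Both groups received 16 weeks of food high in fat and cholesterol, on which mice develop non-alcoholic fatty liver disease, and no group on another diet was analysed here. Msr1 encodes macrophage scavenger receptor 1, which takes up modified lipoproteins, and the labels restrict its loss to no cell type. Each animal gave 1 library. The animals' age is not given in the sources used here. The comparison asked how the liver's lipoprotein genes differ between the genotypes on this diet.

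Hepatocytes export triglyceride and cholesterol in VLDL particles. Each particle is built around a single molecule of apolipoprotein B, to which the microsomal triglyceride transfer protein adds lipid in the endoplasmic reticulum. The smaller apolipoproteins exchange between particles in plasma: those of the A group form high-density lipoprotein (HDL) or act on triglyceride clearance, those of the C group regulate lipoprotein lipase and uptake, and apolipoprotein E is the ligand through which the liver takes up remnants.

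Between 15006773 and 18238932 reads per liver were recovered from the deposited values. Wild type 3 stood apart: it scored -88.7 on the first principal component (41% of the variance), against -8.30 to 27.6 for the other 8 livers, so results are also given without it. Msr1 itself was read in every liver, at 175 ± 23.0 normalised read counts (reads divided by the library's size factor) in Msr1-/- livers (SD, n = 5) and 278 ± 125 in wild type (SD, n = 4), and the groups overlapped. The difference was -0.58 on the log2 scale (two-sided exact permutation p = 0.0476, smallest possible p = 0.0159), and -0.31 without wild type 3 (exact p = 0.107, smallest possible 0.0357). These are totals over the whole gene, and the labels do not say which exons are missing, so they give no clear check of the genotype. Albumin (Alb) had 1224144 to 1718858 normalised counts in Msr1-/- livers and 978421 to 1427868 in wild type. The 11 hepatocyte markers were split, with a log2 fold change above 0 for 7 and below 0 for 4, and a median of 0.14. All 14 macrophage and Kupffer cell markers had a lower mean log2 level in Msr1-/- livers, and their summed level lay at 6457 to 8686 in Msr1-/- livers and at 11074 to 26672 in wild type, the highest in wild type 3. Summed stellate cell markers lay at 3058 to 3644 in Msr1-/- livers and at 3448 to 7492 in wild type, again highest in wild type 3, and endothelial markers at 2716 to 3220 in Msr1-/- livers and at 2869 to 3375 in wild type. In whole tissue, fewer cells of a type and less RNA per cell cannot be told apart.

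The genes lie on chromosomes 1, 3, 7, 9 and 12 (GRCm38, which is the mm10 assembly, in GENCODE M21). Apoa1, Apoc3, Apoa4 and Apoa5 form a cluster between bases 46228580 and 46271919 of chromosome 9, and Apoc2, Apoc4, Apoc1 and Apoe form another between 19671579 and 19699188 of chromosome 7. In order, Apoa1 spans chr9:46228580-46230466, Apoc3 chr9:46232933-46235636, Apoa4 chr9:46240696-46243459 and Apoa5 chr9:46268633-46271919. Apoc2 spans chr7:19671579-19677941, Apoc1 chr7:19689481-19692660 and Apoe chr7:19696109-19699188. Apoa2 lies at chr1:171225054-171226379, Apob at chr12:7977648-8016835 and Mttp at chr3:138089854-138144968. Promoters of 8 of the 10 genes, with 12 start sites in all, were found in the RefSeq table (GRCm38.p6). The 250 bases before the start are shown for Apoe (chr7:19699189-19699438, minus strand) and Apoa5 (chr9:46268383-46268632, plus strand), which had higher means in Msr1-/- livers, and for Apoa2 (chr1:171224804-171225053, plus strand), which varied together with Apoc1 and Apoc3. They are written 5′ to 3′ in gene orientation, and the letters of TATAAA are in capitals.
Apoe: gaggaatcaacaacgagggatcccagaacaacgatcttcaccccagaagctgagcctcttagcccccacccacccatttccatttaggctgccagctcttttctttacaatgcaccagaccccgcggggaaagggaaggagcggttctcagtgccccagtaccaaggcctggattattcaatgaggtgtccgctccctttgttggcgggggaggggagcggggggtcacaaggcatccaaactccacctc
Apoa5: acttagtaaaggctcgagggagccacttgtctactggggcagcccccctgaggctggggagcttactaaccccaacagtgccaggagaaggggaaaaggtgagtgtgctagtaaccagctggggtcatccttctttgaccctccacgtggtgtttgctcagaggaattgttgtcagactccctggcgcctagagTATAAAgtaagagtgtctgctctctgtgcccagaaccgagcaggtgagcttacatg
Apoa2: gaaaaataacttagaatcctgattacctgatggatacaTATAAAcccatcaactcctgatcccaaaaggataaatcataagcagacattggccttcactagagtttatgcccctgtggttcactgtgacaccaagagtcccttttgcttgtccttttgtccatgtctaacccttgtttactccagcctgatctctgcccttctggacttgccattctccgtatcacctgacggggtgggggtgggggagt

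Searched on both strands, TATAAA was found before 5 of the 12 start sites, 1 of Apoa2, 1 of Apob, 1 of Apoe (a start site downstream of the one shown, with 2 overlapping matches) and both of Apoa5. It was found in 12.4% of 32817 promoter windows of the same length. AGGTCA, the nuclear receptor recognition element, was found before 1 start site of Apoa2 and that of Apoc2, and in 14.0% of all windows. CAAAGTCCA, a sequence bound by hepatocyte nuclear factor 4, was found before 0 of the 12 and in 0.384% of all windows. The direct repeat of AGGTCA with a gap of a single base was also found before 0 of the 12, and in 0.0335% of all windows. Both start sites of Apoa5 lie close together and share most of their window, so their matches are the same letters. These matches describe letters only.

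Per kilobase of merged exon, Apoa2 had the highest level and Apoc2 the lowest, in an order set by the geometric mean over the 9 livers. The level per kilobase of Apoa2 was 372273 ± 81934 normalised counts in Msr1-/- livers and 307080 ± 87641 in wild type (SD, n = 5 and n = 4). Apoc1 followed with 202147 ± 46134 in Msr1-/- livers and 185413 ± 56024 in wild type, Apoe with 198578 ± 25328 in Msr1-/- livers and 129296 ± 24383 in wild type, and Apoa1 with 146552 ± 32759 in Msr1-/- livers and 182486 ± 51202 in wild type. The ranges of these neighbours overlapped over the 9 livers: Apoa2 was above Apoc1 in 9 of 9 livers, Apoc1 above Apoe in 6, and Apoe above Apoa1 in 5. A step without overlap separated Apoa1 from Apoc3 (48254 ± 12411 in Msr1-/- and 42598 ± 12410 in wild type), and another separated Apoc3 from Apob (4124 ± 725 in Msr1-/- and 4124 ± 905 in wild type). Apob and Apoa5 (4534 ± 527 in Msr1-/- and 3213 ± 926 in wild type) overlapped, as did Apoa5 with Apoa4 and Apoa4 with Mttp (663 ± 144 in Msr1-/- and 494 ± 36.0 in wild type). Apoc2 stood below Mttp in every liver, with 43.8 ± 14.8 in Msr1-/- and 39.7 ± 18.1 in wild type. Of its 813 exon bases, 646 are shared with a same-strand gene, so its place cannot be read as the level of the mRNA. Together the 10 genes held 5.25, 6.14, 7.08, 6.54 and 6.50% of all reads in Msr1-/- livers 1 to 5, against 4.75, 6.39, 5.21 and 6.80% in wild type 1 to 4. The shares overlapped, with means of 6.30 ± 0.678% in Msr1-/- livers and 5.79 ± 0.965% in wild type.

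None of the 10 genes was called between the genotypes at an adjusted p under 0.05 in limma, where 1.37% of the 12937 tested genes were called (177 genes, 86 higher and 91 lower in Msr1-/- livers). Apoa5, Mttp and Apoe had an unadjusted p under 0.05, all with higher means in Msr1-/- livers. That p was reached by 15.3% of tested genes in either direction and by 7.30% in the same direction. The edgeR quasi-likelihood test on recovered reads also called 0 of the 10 (1.43% of tested genes called), with 3 at an unadjusted p under 0.05. DESeq2 called 1, Apoe, of the 9 for which it gave a p (it gave none for Apoa4), where it called 5.98% of tested genes. Without wild type 3, edgeR called 1, Apoa5 (5.12% of tested genes called), and DESeq2 called 2, Apoa5 and Apoe (8.26%). The log2 fold change, Msr1-/- over wild type, was above 0 for 9 of the 10, as for 52.7% of tested genes, and its median was 0.25 over the 10, against 0.02 over all tested genes. Without wild type 3 that median was 0.10. Fold changes from limma refer to log2(value + 1), which understates the change of low genes, and those of edgeR and DESeq2 come from their count models.

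**Figure D1:**
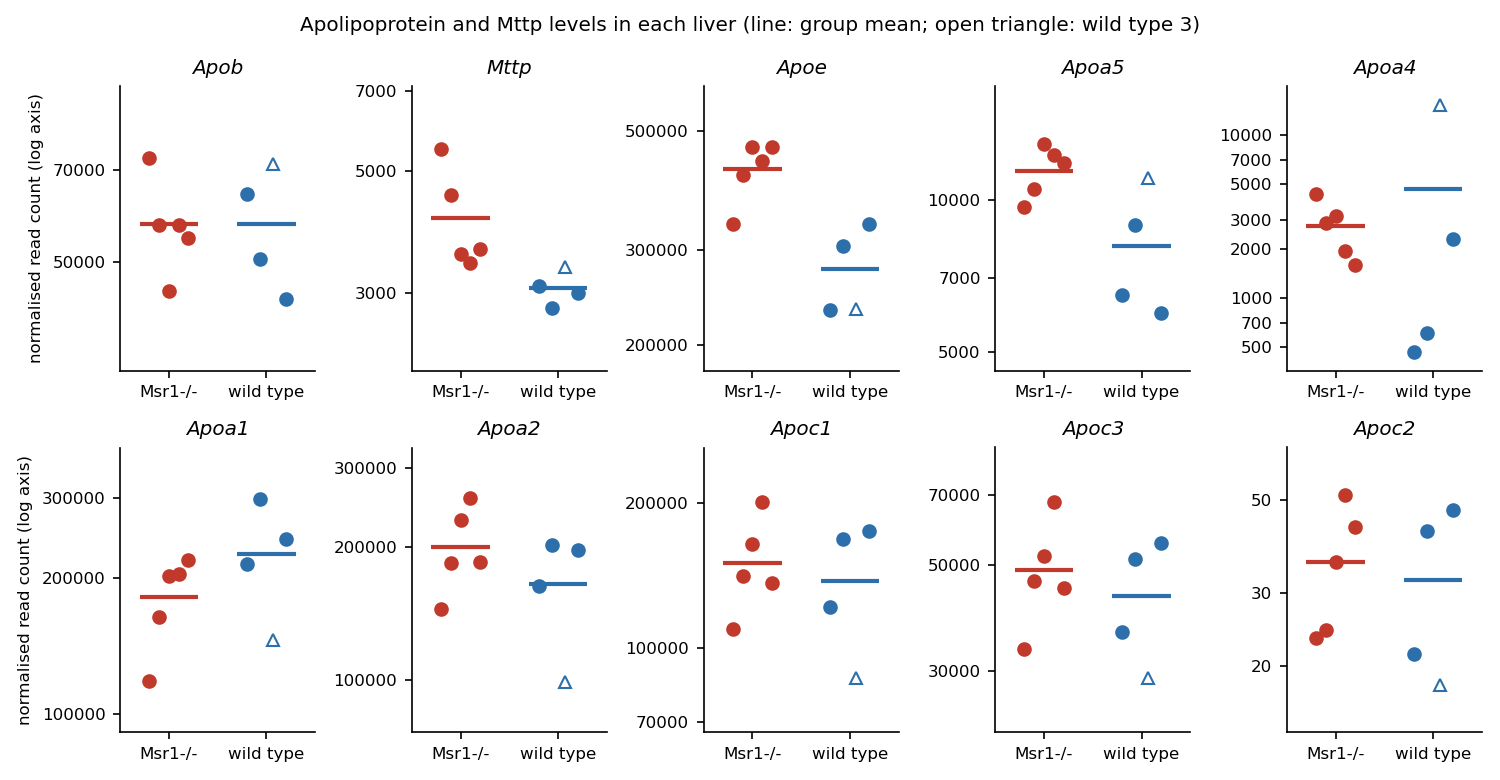
Normalised read count (log axis) of the 10 genes in each Msr1-/- liver (red, left) and wild-type liver (blue, right). Lines are group means and the open triangle is wild type 3. Apoe and Mttp do not overlap between genotypes, and Apoa4 in wild type 3 stands at 15367 normalised counts, above all other livers.

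Apob and Mttp provide the core of VLDL assembly, and neither was called. Apob, the structural protein, had 73167, 57175, 45064, 57179 and 54706 normalised counts in Msr1-/- livers 1 to 5, against 64161, 50553, 71426 and 43703 in wild type 1 to 4. The groups covered the same range, with means of 57458 ± 10101 in Msr1-/- livers and 57461 ± 12608 in wild type (SD, n = 5 and n = 4). The log2 fold change was 0.01 with a 95% interval of -0.45 to 0.47 (limma adjusted p = 0.992), so differences of a size inside that interval are not excluded. Its sign turned under several alternatives.

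Mttp, the large subunit of the transfer protein, had 5503, 4520, 3536, 3412 and 3608 normalised counts in Msr1-/- livers 1 to 5, against 3097, 2815, 3351 and 3002 in wild type 1 to 4. Every Msr1-/- liver was above every wild-type liver, but the lowest of 3412 and the highest wild-type value of 3351 nearly touched, and Msr1-/- 1 and Msr1-/- 2 carried much of the gap. The means were 4116 ± 891 in Msr1-/- livers and 3066 ± 223 in wild type. The log2 fold change was 0.40 ± 0.15 (SE), or 1.32-fold, with a 95% interval of 0.07 to 0.74. It did not pass the adjusted threshold (unadjusted p = 0.0226, limma adjusted p = 0.228), with adjusted p of 0.069 to 0.442 over the alternatives. Of the 6206 exon bases of Mttp, 589 are shared with genes on the opposite strand, among them Trmt10a, and the strand setting of the counting is not given.

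Apoe encodes the remnant ligand, which hepatocytes and macrophages both make. It was the most read of the 10 genes, with 336040, 413464, 466484, 440191 and 466621 normalised counts in Msr1-/- livers 1 to 5, against 232273, 305651, 232734 and 335077 in wild type 1 to 4. The groups did not overlap, although Msr1-/- 1 and wild type 4 were nearly equal. The means were 424560 ± 54152 in Msr1-/- livers and 276434 ± 52130 in wild type. Two-sided limma gave a log2 fold change of 0.63 ± 0.28 (SE), or 1.54-fold, with a 95% interval of 0.02 to 1.24, an unadjusted p of 0.0447 and an adjusted p of 0.311. DESeq2 gave 0.61 and called it (adjusted p = 0.00597), while edgeR gave 0.61 and did not (adjusted p = 0.146). Adjusted p ranged from 0.00597 to 0.579 over the alternatives. The limma SE rests on a variance drawn toward a trend with level, not on the spread of Apoe alone. Mttp, with the same SD within genotype on the log2 scale (0.23), had an SE of 0.15. The unadjusted limma p of Apoe was 0.102 with no filter and 0.0184 with a mean of 50 or more. The macrophage marker sum given above was lower in Msr1-/- livers, opposite to Apoe, and its part in the Apoe level was not tested.

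Apoa5, a plasma protein known to favour triglyceride clearance, had 9666, 10501, 12923, 12274 and 11814 normalised counts in Msr1-/- livers 1 to 5, against 6497, 8911, 11033 and 5973 in wild type 1 to 4. The groups overlapped through wild type 3 alone, which lay above Msr1-/- 1 and Msr1-/- 2. The means were 11436 ± 1329 in Msr1-/- livers and 8103 ± 2335 in wild type, a log2 fold change of 0.53 ± 0.19 (SE), or 1.45-fold, with a 95% interval of 0.12 to 0.95 (unadjusted p = 0.016, limma adjusted p = 0.199). Leaving out wild type 3 brought the wild-type mean to 7127 ± 1567, the groups did not overlap, and the log2 fold change of 0.70, or 1.62-fold, was called (limma adjusted p = 0.0257, where 4.91% of tested genes were called). Array weights, which gave wild type 3 a weight of 0.178, also led to a call, with 0.69 and an adjusted p of 0.0312 (4.10% of tested genes called). Adjusted p ranged from 0.001 to 0.518 over the alternatives. A stretch of 524 of the 2522 exon bases is shared with an opposite-strand gene.

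Groups that did not overlap, with Msr1-/- above, were found for 2 of the 10 genes (Apoe and Mttp) and for 3.30% of tested genes. Without wild type 3 they were found for 3 of the 10 (Apoe, Mttp and Apoa5) and for 7.46% of tested genes.

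Apoa4, which responds to dietary fat and is made in the intestine and, in mice, in fatty liver, varied most. It had 4311, 2887, 3159, 1940 and 1600 normalised counts in Msr1-/- livers 1 to 5, against 463, 612, 15367 and 2283 in wild type 1 to 4. The Msr1-/- livers lay within a 2.70-fold range, whereas wild type held both the lowest and the highest liver, 33.2-fold apart. The means of 2779 ± 1072 in Msr1-/- livers and 4681 ± 7172 in wild type put wild type higher, while the mean log2 values put Msr1-/- higher by 0.56, with a 95% interval of -1.30 to 2.42 (limma adjusted p = 0.839). The count models gave the other sign, -0.76 in both edgeR and DESeq2, with no p from DESeq2. Leaving out wild type 3 brought the wild-type mean to 1119 ± 1011, and the log2 fold change was 1.59, or 3.02-fold, with a 95% interval of 0.60 to 2.59. It was not called (limma adjusted p = 0.0681), with adjusted p of 0.0681 to 0.989 over the alternatives. Of 10 enterocyte markers listed, 3 were among the genes analysed here, and their summed level lay at 6118 to 7107 in Msr1-/- livers and at 3069 to 4675 in wild type. Vil1, a brush border protein, stood at 1.00 to 1.96 normalised counts in Msr1-/- livers and at 0.949 to 3.92 in wild type, near 0 in all 9. Fabp2, a fatty acid binding protein, had 4354 to 5666 in Msr1-/- livers and 1652 to 3547 in wild type, a log2 fold change of 1.00 that was called (limma adjusted p = 0.0316, and 0.0542 with the length trend removed). Anpep, a peptidase, had 1277 to 1840 in Msr1-/- livers and 1124 to 1416 in wild type. The part of these genes in the Apoa4 level was not tested. A stretch of 1266 of its 1815 exon bases is shared with opposite-strand genes, so antisense reads cannot be told apart from its own where strand was not used.

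Apoa1, the main protein of HDL, was the only one of the 10 with a log2 fold change below 0. It had 118473, 163520, 201381, 203805 and 218513 normalised counts in Msr1-/- livers 1 to 5, against 214736, 298122, 146069 and 243285 in wild type 1 to 4. The groups overlapped, and both wild type 2 and wild type 4 were above all Msr1-/- livers while wild type 3 was below all but Msr1-/- 1. The log2 fold change was -0.30 with a 95% interval of -0.95 to 0.35 (limma adjusted p = 0.71). It ranged from -0.50 without wild type 3 (adjusted p = 0.263) to -0.15 without wild type 2 (adjusted p = 0.873) and was -0.16 without Msr1-/- 1 (adjusted p = 0.888), and adjusted p lay at 0.122 to 0.888 over the alternatives.

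Apoa2, the next most abundant HDL protein, had 144338, 183631, 229321, 257356 and 184906 normalised counts in Msr1-/- livers 1 to 5, against 163185, 201430, 99011 and 195982 in wild type 1 to 4. Wild type 3 was the lowest liver, the other livers overlapped, and the log2 fold change was 0.30 (95% interval -0.34 to 0.95, limma adjusted p = 0.707), or 0.07 without wild type 3.

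The C apolipoproteins showed no difference beyond the spread between livers. Apoc1, which inhibits lipoprotein uptake and transfer, had 109262, 141207, 164558, 200739 and 136219 normalised counts in Msr1-/- livers 1 to 5, against 121477, 168484, 86702 and 175126 in wild type 1 to 4. Apoc3, an inhibitor of lipoprotein lipase and of remnant uptake, had 33390, 46324, 52295, 67824 and 44814 in Msr1-/- livers, against 36340, 51546, 29082 and 55810 in wild type. Both were highest in Msr1-/- 4 and lowest in wild type 3, and both overlapped between genotypes. The log2 fold change was 0.15 for Apoc1 (95% interval -0.47 to 0.77, limma adjusted p = 0.874) and 0.19 for Apoc3 (95% interval -0.37 to 0.75, limma adjusted p = 0.809). Without wild type 3 they were -0.06 and 0.02.

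Apoc2, the activator of lipoprotein lipase, was read at a far lower level than its neighbours in the cluster. It had 23.3, 24.5, 35.6, 51.5 and 43.1 normalised counts in Msr1-/- livers 1 to 5, against 21.4, 42.2, 18.0 and 47.4 in wild type 1 to 4. The groups overlapped, with means of 35.6 ± 12.1 in Msr1-/- livers and 32.3 ± 14.7 in wild type and a log2 fold change of 0.19 (95% interval -0.58 to 0.96, limma adjusted p = 0.873). In GENCODE M21, 646 of its 813 exon bases also belong to Gm44805, a gene on the same strand that spans Apoc4 and Apoc2, which leaves 167 bases, or 20.5%, to Apoc2 alone. Gm44805 is not among the genes analysed here, and the annotation used for counting is not given, so the Apoc2 value cannot be read as the level of the mRNA. Its neighbour Apoc4, with 119 of 2537 exon bases shared with Gm44805, had 12314 to 27644 normalised counts in Msr1-/- livers and 12019 to 25541 in wild type. Apoc4 was named here after its values were seen.

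**Figure D2:**
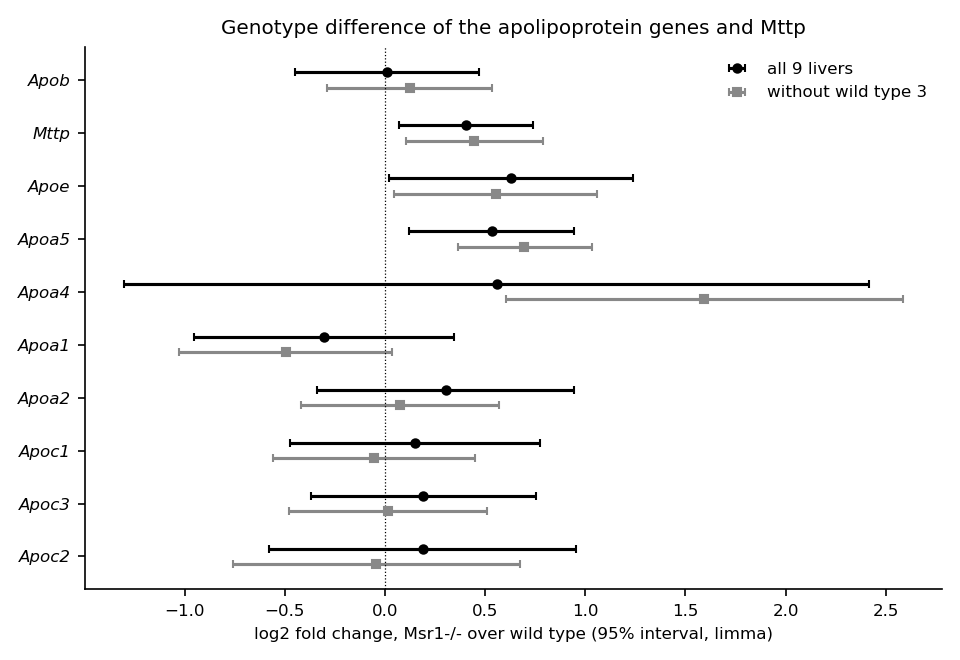
Log2 fold change of each gene, Msr1-/- over wild type, with its 95% interval from limma, over all 9 livers (black circles) and without wild type 3 (grey squares). The intervals of Mttp, Apoe and Apoa5 lie above 0 in both fits, that of Apoa4 only without wild type 3, and those of the other 6 genes include 0 in both.

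Within a genotype, the genes differed in spread, and over all 9 livers several moved together. The SD within genotype on the log2 scale was 0.23 for Apoe and for Mttp, 0.28 for Apob, 0.30 for Apoa5, 0.39 to 0.40 for Apoa1, Apoa2, Apoc1 and Apoc3, 0.57 for Apoc2 and 1.57 for Apoa4. Of the 45 pairs over 9 livers, 7 had a Benjamini-Hochberg adjusted exact permutation p under 0.05 by Pearson's r, and 5 by Spearman's rho. Apoc1 and Apoc3, which lie on different chromosomes, were closest, with r = 0.987 (exact permutation adjusted p = 0.000248, raw p = 5.51e-06) and rho = 0.983 (exact permutation adjusted p = 0.00223). Their r was 0.983 without the 2 livers farthest from the median of Apoc1, and 0.987 on deviations from the genotype means. In the pairs below, the 2 farthest livers are those farthest from the median of Apoa2 or Apoa1, not of both genes of a pair. Apoa2 followed both, with r = 0.960 to Apoc1 (adjusted exact p = 0.000806, rho = 0.917, 0.899 without the 2 farthest livers) and r = 0.938 to Apoc3 (adjusted exact p = 0.000951, rho = 0.933, 0.908 without the 2 farthest livers). Apoc2 correlated with Apoc3 at 0.896, with Apoc1 at 0.886 and with Apoa2 at 0.819. Apob ran the other way from this group, with r = -0.789 to Apoc1 (adjusted exact p = 0.0669), which missed the threshold. Apoa1 and Mttp had r = -0.838 (adjusted exact p = 0.0297). Their rho of -0.717 did not pass (adjusted exact p = 0.162), and r was -0.530 without the 2 farthest livers. All these p-values leave genotype out. On deviations from the genotype means Apoe had r = -0.943 to Apob, 0.881 to Apoc2, 0.841 to Apoa1, 0.84 to Apoc3 and -0.739 to Mttp. Over the 9 livers these were -0.501, 0.626, 0.089, 0.661 and 0.293. To Apoa4 and Apoa5 it had -0.29 and -0.03 on the deviations, which were not tested.

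In several livers these short genes deviated in the same direction as the short genes of the whole library, but not in all. The merged exons of Apoa2, Apoc1, Apoc2 and Apoc3 span 537, 744, 813 and 1014 bases, and those of Apob 13934. The median log2 deviation of the 550 tested genes of up to 1000 bases from their 9-liver mean was -0.23, -0.05, 0.00, 0.23 and -0.02 in Msr1-/- livers 1 to 5, and 0.04, 0.21, -0.27 and 0.22 in wild type 1 to 4. Apoc3 falls in the next class, of 1000 to 2000 bases (1439 genes). The medians of that class were smaller, at -0.14 in Msr1-/- 1, 0.09 in Msr1-/- 4, -0.08 in wild type 3 and 0.07 in wild type 4. In genes of over 8000 bases (2161 genes) the medians lay between -0.04 and 0.11 in Msr1-/- livers and between -0.03 and 0.01 in wild type. Apoc3 deviated by -0.43, 0.04, 0.22, 0.59 and 0.00 in Msr1-/- livers 1 to 5, and by -0.31, 0.20, -0.63 and 0.31 in wild type 1 to 4. Msr1-/- 1 and wild type 3 were low and Msr1-/- 4 and wild type 4 were high in both Apoc3 and the class of up to 1000 bases. Apob was highest in Msr1-/- 1 and wild type 3. Wild type 1 differed, with Apoa2, Apoc1, Apoc2 and Apoc3 at -0.13, -0.21, -0.56 and -0.31 and the class of short genes at 0.04. When each liver's trend with exon length was removed, the SD within genotype fell to 0.20 for Apoa2, 0.24 for Apoc1 and 0.28 for Apoc3, and was 0.27 for Apob, with little change. That of Apoc2 was 0.44. Apoc1 and Apoc3 then had r = 0.975, and Apoa2 had 0.880 to Apoc1 and 0.811 to Apoc3. Apoc2 had 0.830 to Apoc3, 0.788 to Apoc1 and 0.593 to Apoa2. The log2 fold changes of Apoe, Apoa5 and Mttp were then 0.63, 0.53 and 0.39, that of Apoa2 was 0.37, and 0 of the 10 genes were called by limma (1.58% of 12619 tested genes called), with 3 at an unadjusted p under 0.05. What gave the livers their different length trends was not tested.

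**Figure D3:**
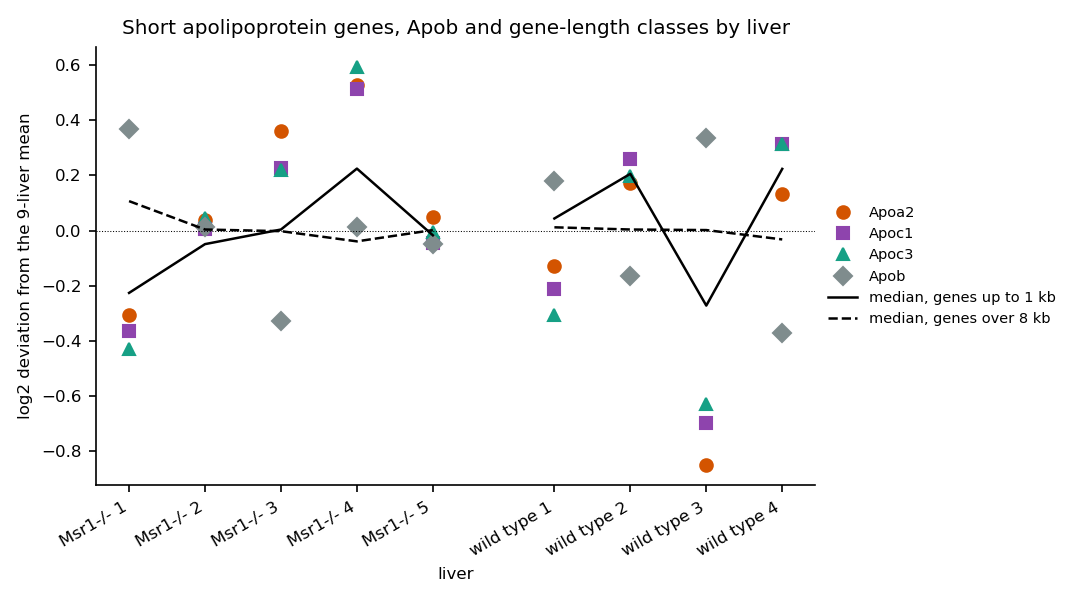
Log2 deviation from the 9-liver mean in each Msr1-/- liver (left) and wild-type liver (right) for Apoa2, Apoc1, Apoc3 and Apob (symbols), with the median of all tested genes of up to 1 kb (solid line) and over 8 kb (dashed line) of merged exon. The 3 short apolipoprotein genes are low in Msr1-/- 1 and wild type 3 and high in Msr1-/- 4 and wild type 4, as is the solid line, while the dashed line stays near 0.

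The genes most like Apoe, Apoa5 and Mttp over the 9 livers were sought among 8317 other genes whose mean reached 100. Genes named with a Gm number or with a name ending in Rik were left out of the search. Nearest to Apoe were Dennd1a (r = 0.988), Nfic (0.986) and Mettl7b (0.978), the last with 13704 ± 2065 normalised counts in Msr1-/- livers and 9929 ± 1716 in wild type. Nearest to Mttp were Rab30 (0.971), Ubap1 (0.969) and Psmc2 (0.968). Rab30, a small GTPase of the Golgi, had 218 ± 97.3 in Msr1-/- livers and 89.3 ± 25.2 in wild type, and ranked the livers exactly as Mttp did (rho = 1.00). Nearest to Apoa5 were Faim (0.923), Rrp36 (0.901) and Tmem2 (0.899). These are the highest of many correlations and are given as a description.

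The other genes of lipoprotein handling were counted in 5 lists with 114 tested genes in all. Of these limma called 5, or 4.39%, against 1.37% of all tested genes. The lists were chosen with earlier results of these data known, and the difference between these shares was not tested. Of 34 VLDL assembly and secretion partners, 2 rose and 0 fell in Msr1-/- livers, with a median log2 fold change of 0.20. Mia2, which helps load large lipoprotein cargo at endoplasmic reticulum exit sites, had 4719, 4069, 3944, 3590 and 4263 normalised counts in Msr1-/- livers 1 to 5, against 2698, 2727, 2827 and 2651 in wild type 1 to 4. The groups were well apart, with means of 4117 ± 417 in Msr1-/- livers and 2726 ± 74.7 in wild type, a log2 fold change of 0.59 ± 0.11 (SE), or 1.50-fold (limma adjusted p = 0.0276). Ces1d, a carboxylesterase that mobilises stored triglyceride for VLDL, rose 1.95-fold, to 10598 ± 1215 in Msr1-/- livers against 5623 ± 1882 in wild type (log2 fold change 0.96, limma adjusted p = 0.041). Pla2g6, a phospholipase, did not pass in limma, with 1070 ± 157 in Msr1-/- livers and 615 ± 163 in wild type (log2 fold change 0.83, limma adjusted p = 0.0619). It was called higher in DESeq2 (adjusted p = 0.00491), with array weights (0.0189) and without wild type 3 in limma (0.0165), edgeR (0.022) and DESeq2 (0.000239), within 0.000239 to 0.216 over the alternatives. The call of Mia2 was lost without Msr1-/- 1, 2, 3 or 5, or without wild type 1 or 2 (adjusted p up to 0.0796), and that of Ces1d without any Msr1-/- liver, or without wild type 2 or 4 (adjusted p up to 0.107).

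Other partners are given by value, chosen after their values were seen. P4hb, the protein disulfide isomerase that pairs with Mttp as the small subunit of the transfer protein, had 28649 ± 851 normalised counts in Msr1-/- livers and 21438 ± 2221 in wild type, without overlap (log2 fold change 0.42, limma adjusted p = 0.147). DESeq2 called it (adjusted p = 0.000654) and edgeR did not (0.128). Cideb, which lipidates VLDL, had 613 ± 32.4 in Msr1-/- livers and 390 ± 167 in wild type (log2 fold change 0.74, limma adjusted p = 0.137). Without wild type 3, at 625, the log2 fold change of Cideb was 1.00 and it was called (adjusted p = 0.00427). Apobec1, the deaminase that edits Apob mRNA into the form for the shorter protein in mouse liver, had 246 ± 10.6 in Msr1-/- livers and 386 ± 110 in wild type, without overlap (log2 fold change -0.61, limma adjusted p = 0.118). DESeq2 called it lower (adjusted p = 0.0197) and edgeR did not (0.0818).

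Of 16 other apolipoprotein genes tested (19 listed), 1 rose and 0 fell, with a median log2 fold change of -0.03. Apon had 8378 ± 586 normalised counts in Msr1-/- livers and 5300 ± 901 in wild type, a 1.60-fold rise (log2 fold change 0.68, limma adjusted p = 0.041), and its call was lost without any 1 Msr1-/- liver, or without wild type 1 or 2 (adjusted p up to 0.108). Saa1 and Saa2, acute-phase apolipoproteins of HDL, did not pass in limma with all livers. Saa1 had 1812, 1104, 679, 958 and 639 in Msr1-/- livers 1 to 5, against 13856, 18852, 4789 and 1088 in wild type 1 to 4, overlapping through wild type 4 (log2 fold change -2.66, limma adjusted p = 0.0893). Saa2 gave -2.92 (limma adjusted p = 0.109). Without wild type 4 limma called both, Saa1 at -3.48 (adjusted p = 0.0117) and Saa2 at -3.92 (adjusted p = 0.0105). Over the alternatives adjusted p lay at 0.000771 to 0.196 for Saa1 and at 0.000369 to 0.228 for Saa2. These paralogs are similar enough in sequence that reads may be split between them. Both edgeR and DESeq2 called Saa1 and Saa2 lower in Msr1-/- livers.

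Of 17 genes of plasma lipoprotein remodelling tested (18 listed), 1 rose and 1 fell. Angptl4, a secreted inhibitor of lipoprotein lipase and a known target of fatty-acid-sensing receptors, had 1962 ± 153 normalised counts in Msr1-/- livers and 1072 ± 387 in wild type, without overlap (1.90-fold, log2 fold change 0.93, limma adjusted p = 0.041). The call ended without any 1 Msr1-/- liver, or without wild type 1 or 4 (adjusted p up to 0.101). Lpl, the lipase itself, made little by hepatocytes and more by macrophages, fell in Msr1-/- livers. It had 311, 329, 248, 265 and 382 in Msr1-/- livers 1 to 5, against 867, 683, 4057 and 1140 in wild type 1 to 4, a log2 fold change of -2.08 (limma adjusted p = 0.041), or -1.53 without wild type 3 (adjusted p = 0.00171). The call with all livers ended without any 1 Msr1-/- liver, or without wild type 1 or 4 (adjusted p up to 0.107). The macrophage marker sum moved the same way, and its part in the fall of Lpl was not tested. Pcolce2, a procollagen enhancer known to act in HDL remodelling, had 22.7 ± 7.99 in Msr1-/- livers and 52.3 ± 14.4 in wild type (log2 fold change -1.22, limma adjusted p = 0.0899). DESeq2 called it lower with all livers (adjusted p = 0.0097) and without wild type 3 (0.0319), within 0.0097 to 0.253 over the alternatives.

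Of 14 receptor and uptake genes tested (16 listed), 0 were called by limma, edgeR or DESeq2, and 1 had an unadjusted p under 0.05 in each. Among all tested genes, 15.3% reached that p in limma, 2022 of 12937 in edgeR and 2122 of 12881 in DESeq2. Scarb1, the HDL receptor, had 2066 ± 301 in Msr1-/- livers and 1673 ± 332 in wild type (adjusted p = 0.363). Cd36, a fatty acid and lipoprotein receptor, had 3170, 2126, 1453, 1524 and 619 in Msr1-/- livers 1 to 5, against 364, 271, 3173 and 579 in wild type 1 to 4. Only wild type 3 overlapped the Msr1-/- livers, and without it Cd36 was called, with a log2 fold change of 2.02 (adjusted p = 0.0201, against 0.417 with all livers).

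Of 33 transcription factors known to act on apolipoprotein genes, limma called 0 and edgeR 0, while DESeq2 called 3, or 9.09%. An unadjusted p under 0.05 was reached by 6 in limma and 5 in edgeR. Over all tested genes that p was reached by 15.3% in limma and by 2022 of 12937 in edgeR, and DESeq2 called 5.98%. The median log2 fold change of the list was 0.20 in limma and 0.07 without wild type 3, where edgeR gave -0.02 and DESeq2 -0.01. Foxa3, a forkhead factor of hepatocytes, had 546 ± 110 normalised counts in Msr1-/- livers and 901 ± 144 in wild type, without overlap (log2 fold change -0.73, limma adjusted p = 0.0638, 0.032 without wild type 3, 0.00442 in DESeq2). Ppara, the fatty-acid-sensing receptor, had 495 ± 103 in Msr1-/- livers and 321 ± 59.0 in wild type, also without overlap (log2 fold change 0.62, limma adjusted p = 0.112, 0.0375 without wild type 3, 0.0303 in DESeq2).

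**Figure D4:**
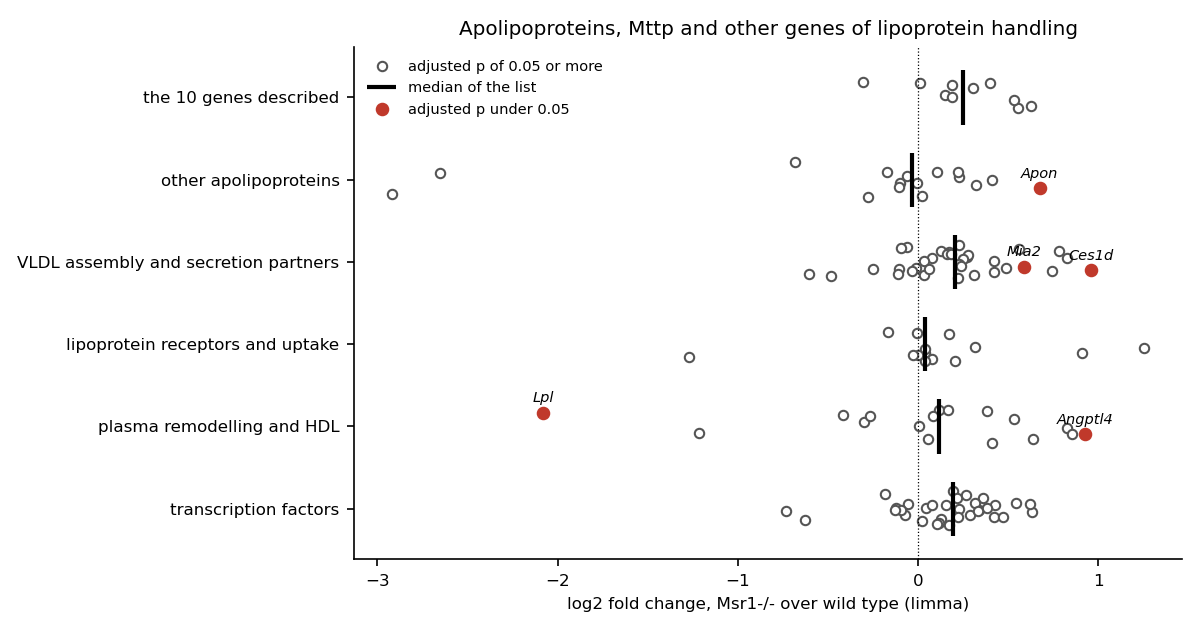
Log2 fold change, Msr1-/- over wild type (limma), of the 10 genes and of the 5 lists of other lipoprotein genes. Each point is a gene, filled where its adjusted p was under 0.05, and bars are list medians. Apon, Mia2, Ces1d and Angptl4 are called above 0 and Lpl below, and the median of the 10 genes is 0.25.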

How the data were processed

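The authors deposited 1 table of signal per gene and liver, in which read counts per gene were scaled by a size factor for each library. The submitters' processing notes name STAR, HTSeq, DESeq2 and mm10, without versions. Libraries were made from total RNA with a TruSeq kit, per the labels' protocols. The deposited values were whole multiples of 1 step per liver (100% within 0.01 reads), so reads were recovered. Depth covers counting error only. The p-values of the genotype tests set the difference against the spread between animals. In limma each gene's variance is drawn toward a trend with level.

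Genes with a mean of 10 or more (12937) were tested on log2(value + 1) with limma 3.58.1 in R 4.3.3 (intensity trend, genotype only), Benjamini-Hochberg adjusted over all of them, with a threshold of 0.05. Alternatives were edgeR 4.0.16 and DESeq2 1.42.0 on recovered reads, other pseudocounts, filters and scalings, array weights, a replicate block and each liver left out. Chosen after the data were seen were both count tools with wild type 3 left out and the removal of each liver's lowess trend with exon length. Exact permutation tests used scipy 1.17.1. In simulated counts of 12937 genes for this comparison, limma recovered 46% of 100 genes changed 2-fold and 82% of 100 changed 4-fold, and 9.22% of 141 calls were false. Exon lengths were matched by symbol for 16881 genes (96.8%). No libraries were duplicates (lowest chi-square per degree of freedom 21.3).

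The 10 genes and the lists were chosen with earlier results of these data known. The text names these genes, each called gene and the 3 of smallest p in each list, and the 3 genes most like each of the 3 with the smallest p. Exceptions are marked where they stand. Results of 2 genes that this rule names are not reported here. Promoter sequences are RefSeq's. The window before Mttp overlaps exons of Trmt10a and is not shown.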

Additional observations from a re-analysis of the deposited data

Results flagged for a closer look

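In groups of 4 or 5 livers, 26 genes were checked for a liver far from the rest of its group (52 groups). The rule set the gap to the nearest liver against the range of the group, on normalised counts and not on log2 values. It was met by 4 groups. Chance meets it in about 1 of 20 groups if values are normally distributed, which was not tested for these counts. Apoa4 in wild type 3 stood at 15367 normalised counts, with the other wild-type livers at 463 to 2283. Cd36 in wild type 3 stood at 3173, with the others at 271 to 579. Lpl in wild type 3 stood at 4057, with the others at 683 to 1140. Angptl4 in wild type 2 stood at 1647, with the others at 809 to 944, still below the lowest Msr1-/- liver at 1711. No Msr1-/- liver was flagged for these genes. Of the 4 flagged values, 3 are in wild type 3, the liver that stood apart across all genes.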

How the results depend on the processing

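Apoa1, Apoa2, Apoc3 and Mttp kept their direction and stayed uncalled under all 22 alternatives run for each, and Apoa5 and Apoe kept theirs, with calls in 4 and 2 of 22. Apoa4 turned to -0.76 in edgeR, -0.76 in DESeq2 and -0.089 without wild type 1 (leaving out 1 liver gave -0.089 to 1.59). Apob, at 0.01, turned to -0.01 with quantile scaling, -0.006 in edgeR, -0.004 in DESeq2 and -0.012 with the length trend removed, and ranged from -0.11 to 0.12 when 1 liver was left out. Apoc1 turned to -0.032 with array weights, -0.055 without wild type 3, -0.055 in edgeR without wild type 3 and -0.048 in DESeq2 without wild type 3 (leaving out 1 liver, -0.055 to 0.28). Apoc2 turned to -0.080 with array weights, -0.043 without wild type 3, -0.080 in edgeR without wild type 3 and -0.069 in DESeq2 without wild type 3 (leaving out 1 liver, -0.043 to 0.41), and had no value under a filter of a mean of 50 or more. Of the 10 genes, DESeq2 called 1, array weights 1, edgeR without wild type 3 called 1 (5.12% of tested genes) and DESeq2 without wild type 3 called 2 (8.26%). Leaving out 1 liver gave 0 to 1.

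Genes called higher in Msr1-/- livers (86) came to 307 in DESeq2, 277 with array weights, 304 in edgeR without wild type 3, 539 in DESeq2 without wild type 3, 8 with the replicate block, and 19 to 332 when 1 liver was left out. Genes called lower (91) came to 58 with a mean of 50 or more, 466 in DESeq2, 254 with array weights, 352 in edgeR without wild type 3, 520 in DESeq2 without wild type 3, 0 in limma with the replicate block (1536 genes in both directions at an unadjusted p under 0.05), and 17 to 297 when 1 liver was left out. Pathway list genes called (5) came to 2 with quantile scaling, 15 in DESeq2, 10 with array weights, 0 with the replicate block (24 of 114 at an unadjusted p under 0.05 in limma), 12 in edgeR without wild type 3, 22 in DESeq2 without wild type 3, and 0 to 10 when 1 liver was left out. The calls of Apon, Ces1d and Angptl4 were lost in edgeR (adjusted p 0.0502, 0.0535 and 0.0566) and those of Mia2, Ces1d and Angptl4 with quantile scaling (0.0651, 0.0548 and 0.0548). The block used the animal number. Number 5 occurs only in Msr1-/-, so the block takes Msr1-/- 5 out of the genotype difference and leaves fewer degrees of freedom. Deviations of same-numbered animals correlated at 0.025, -0.077, -0.102 and 0.218, and only animal 4 matched its own number best. The labels do not say what the numbers stand for, so whether they pair the animals is not known. The highest counts when 1 liver was left out came without wild type 3. Why these settings changed calls was not tested.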
